A study of Mus musculus with 70 samples.

Results

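ST2+ Tregs of back skin were compared with ST2+ Tregs of abdominal visceral adipose tissue (VAT) by RNAseq. Libraries were chosen by their labels as ST2+ CD44hi Tregs of these tissues, with a total of more than 1000000 counts, and all 10 of them (5 per tissue) passed out of 70 libraries in the series. All cells came from 5 untreated male mice aged 16.6 to 18.6 weeks. Their B6.129(Cg) background carried the allele Foxp3tm4(YFP/icre)Ayr/J, in which a YFP-Cre fusion reports Foxp3. Each of the 5 mice gave every population, so mouse 1 of skin is mouse 1 of VAT. ST2- CD44hi Tregs of the same tissues (5 libraries each) carried the same allele and served as a second comparison. Every skin and VAT ST2+ library was made from 220 sorted cells, and those of VAT ST2- Tregs from 93 to 220. Some blood ST2+ libraries, used below for levels, were made from fewer than 220 cells. Per the study's methods, skin was digested for longer and in more collagenase IV than VAT, and only VAT was treated for red blood cells, so tissue and preparation cannot be told apart.

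Regulatory T cells (Tregs) are CD4 T cells that depend on the transcription factor Foxp3 and restrain immune responses. ST2, encoded by Il1rl1, is the receptor for IL-33, an alarmin released by stromal and barrier cells, and it marks a fraction of the Tregs that live in tissues. VAT Tregs are known for the nuclear receptor PPARγ and for lipid handling, whereas skin Tregs sit near hair follicles and in the dermis. The comparison asks how far Tregs that share ST2 differ between a barrier and a fat depot.

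Totals ran from 1304560 to 2500529 counts in skin ST2+ libraries and from 1535947 to 2504324 in VAT ST2+ libraries, with 13251 to 16929 and 12232 to 14618 genes detected. The labels held for T cells. The summed level of Cd3d, Cd3e, Cd3g, Cd4 and Foxp3 was 1663 to 1898 CPM (counts scaled to 1000000 in tested genes, with TMM factors) in skin and 1703 to 2122 CPM in VAT. Cd8a had 0 counts in these 10 libraries, but Cd8b1, Ncr1, Klrb1c and Klrd1, markers of CD8 and NK cells, had counts. Summed, these were at 4.80 to 131 CPM in skin and 27.1 to 192 CPM in VAT. Il1rl1, the gene the cells were sorted on, was at 1402 to 1671 CPM in skin and at 1047 to 1343 CPM in VAT, against 24.5 to 206 and 8.51 to 22.9 CPM in the ST2- libraries. Keratinocyte transcripts were present in skin libraries of both populations and are described below.

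Of 13173 protein-coding genes tested, 2914 were differentially expressed genes (DEGs), which is 22.1%. A gene was called a DEG where edgeR's quasi-likelihood test gave it 1.5-fold or more at an adjusted p (Benjamini-Hochberg) no higher than 0.05. In skin, 1482 genes (11.3%) were higher, with a median log2 fold change of 1.30, and 1432 genes (10.9%) were higher in VAT, with a median of -1.25. Throughout, a log2 fold change is skin minus VAT, a positive value is higher in skin, and SE is its approximate standard error. Without scaling factors the split was 1204 higher in skin and 1814 higher in VAT. The skin and VAT libraries did not overlap for 843 of the DEGs higher in skin and 678 of those higher in VAT, against 14.2% of all tested genes. In bulk samples, fewer cells that express a gene and less RNA of it per cell cannot be told apart.

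The GIMAP genes, a cluster of GTPases on chromosome 6 that support lymphocyte survival, were lower in skin without exception. All 8 listed members were DEGs higher in VAT, with log2 fold changes of -5.60 to -2.29 and a list median of -2.88, beside 0.00 over all tested genes. Gimap4 (chr6:48684549-48692060, GRCm38) was at 16.6, 18.5, 3.20, 24.0 and 18.7 CPM in skin of mice 1 to 5 and at 702, 873, 659, 672 and 982 CPM in VAT (log2 fold change -5.60, SE 0.21, adjusted p = 8.78e-31). It had the smallest adjusted p of all genes. Gimap7 was at 10.5, 2.06, 12.8, 7.99 and 0.585 CPM in skin and 311, 369, 276, 247 and 449 CPM in VAT (log2 fold change -5.57, SE 0.32, adjusted p = 1.03e-21). Every VAT library was far above every skin library for both genes. Gimap6 was at 72.0 to 99.4 CPM in skin and 592 to 807 CPM in VAT (log2 fold change -3.03, SE 0.13, adjusted p = 3.59e-27), a smaller gap from a higher skin level. Gimap3 (-2.61, SE 0.14), Gimap5 (-3.05, SE 0.20), Gimap1 (-2.29, SE 0.19), Gimap8 (-2.64, SE 0.23) and Gimap9 (-2.74, SE 0.21) were lower in every skin library than in any VAT library. Gimap1, Gimap8 and Gimap9 were named after their values were seen. All 8 were also DEGs higher in VAT among ST2- Tregs.

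**Figure D1:**
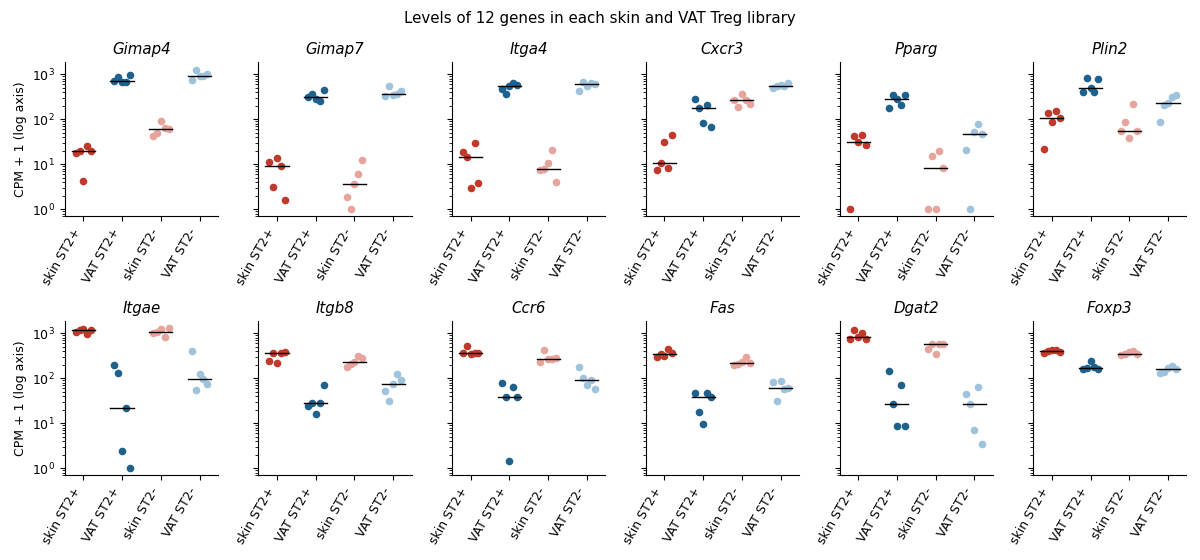
Level of 12 genes in each library, as CPM + 1 on a log axis, for skin ST2+, VAT ST2+, skin ST2- and VAT ST2- Tregs. Points are mice 1 to 5 from left to right and the line is the median. Gimap4, Gimap7, Itga4, Cxcr3, Pparg and Plin2 were lower in every skin ST2+ library than in any VAT ST2+ library, and Itgae, Itgb8, Ccr6, Fas, Dgat2 and Foxp3 were higher.

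Promoter sequence is shown for Gimap4 and Gimap7, the members with the widest gap, as the 250 bases before the RefSeq start (GRCm38.p6, 5′ to 3′ on the gene's strand). Capitals mark ACGTG, the core of hypoxia response elements, or TGACG, the core of cyclic AMP response elements, on either strand. The Gimap4 window (chr6:48684328-48684577, + strand) held 1 ACGTG and the Gimap7 window (chr6:48718371-48718620, + strand) held neither.
Gimap4: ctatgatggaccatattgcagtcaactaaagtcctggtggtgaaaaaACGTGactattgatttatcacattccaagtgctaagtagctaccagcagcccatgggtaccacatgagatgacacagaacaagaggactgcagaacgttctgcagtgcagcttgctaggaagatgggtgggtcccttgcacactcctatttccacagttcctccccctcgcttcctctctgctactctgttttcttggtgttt
Gimap7: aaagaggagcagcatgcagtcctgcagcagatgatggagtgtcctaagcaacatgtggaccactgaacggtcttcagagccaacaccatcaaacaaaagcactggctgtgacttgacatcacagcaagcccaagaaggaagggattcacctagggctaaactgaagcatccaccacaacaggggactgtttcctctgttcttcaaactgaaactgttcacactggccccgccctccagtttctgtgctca
Of the 8 GIMAP promoters 1 held ACGTG and 0 held TGACG, against 21.4% and 26.7% of the 10308 tested genes with a promoter in the table.

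Integrins, the adhesion receptors that hold T cells to vessel wall, matrix and epithelium, changed in both directions. Of 18 adhesion genes tested, 5 were higher in skin and 3 were higher in VAT. Itga4, the α4 chain that pairs with β1 or β7 for entry from blood, was at 17.9, 13.7, 1.92, 29.3 and 2.92 CPM in skin and 462, 362, 552, 630.0 and 584 CPM in VAT (log2 fold change -5.34, SE 0.32, adjusted p = 1.83e-20). Its β1 partner Itgb1 was lower in skin as well, at 169 to 323 against 371 to 778 CPM (log2 fold change -1.20, SE 0.21, adjusted p = 8.38e-06). The VAT library with the least Itgb1 was still above the skin library with the most. Itgb3 was also lower in skin (-1.26, SE 0.29). Itgae, which encodes CD103, the chain that binds E-cadherin on epithelium, was at 1047, 1146, 1267, 965 and 1157 CPM in skin and at 195, 132, 1.40, 21.2 and 0 CPM in VAT (log2 fold change 3.98, SE 0.60, adjusted p = 6.94e-07). VAT libraries of mice 1 and 2 held most of the VAT signal, and without VAT of mouse 1 the log2 fold change was 4.85. Itgb8, whose product activates latent TGF-β, was at 235, 359, 219.7, 369 and 378 CPM in skin and 22.6, 27.3, 15.4, 26.8 and 69.4 CPM in VAT (log2 fold change 3.29, SE 0.41, adjusted p = 5.57e-09). Icam1 was higher in skin too (1.08, SE 0.24).

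Itgae and Itgb8 belong to a wider group. Of 18 tested genes of TGF-β production and signalling, 10 were higher in skin and 0 were higher in VAT, with a list median of 0.83. At an unadjusted p under 0.05 there were 12 and 2, and 1 was higher in VAT without skin of mouse 2, 3 or 4 or VAT of mouse 1, 2 or 5. Without scaling factors these were 7 and 1, and by glmTreat against 1.5-fold 4 were higher in skin. Smad7, an inhibitor that TGF-β signalling induces, was at 97.7 to 205 CPM in skin and 25.1 to 33.3 CPM in VAT (log2 fold change 2.26, SE 0.28, adjusted p = 5.66e-09), and the groups did not overlap.

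Of 17 chemokine receptors tested, which direct T cells to tissues, 7 were higher in skin and 2 were higher in VAT. Ccr6, the receptor for the epithelial chemokine CCL20, was at 364, 515, 338, 368 and 361 CPM in skin and 75.7, 37.4, 0.467, 63.9 and 37.5 CPM in VAT (log2 fold change 3.17, SE 0.55, adjusted p = 1.02e-05). Ccr7, which guides cells into lymphatic vessels and lymph nodes, was at 379, 521, 324, 257 and 405 CPM in skin and 50.6, 27.9, 25.7, 167 and 52.8 CPM in VAT (log2 fold change 2.53, SE 0.45, adjusted p = 1.51e-05). Without VAT of mouse 4, the highest VAT library, it was 3.26. Ccr8, a receptor of skin-homing T cells, was higher in skin in all 5 mice (log2 fold change 1.07, SE 0.30, adjusted p = 0.00499). Gpr183, an oxysterol receptor, was at 275 to 408 CPM in skin and 69.6 to 160.4 CPM in VAT (log2 fold change 1.65, SE 0.22, adjusted p = 2.3e-08). Ccr10, the receptor for the keratinocyte chemokine CCL27, was named after its values were seen. It was at 144, 51.4, 73.0, 87.0 and 82.5 CPM in skin and 5.35, 0, 0.467, 0 and 22.9 CPM in VAT (log2 fold change 3.98, SE 1.11, adjusted p = 0.00563), and without VAT of mouse 5 the log2 fold change was 5.76.

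Cxcr3, the receptor of type 1 inflammation, was higher in VAT, at 278, 178, 79.8, 209 and 65.3 CPM, than in skin, at 6.57, 9.60, 29.5, 7.10 and 43.9 CPM (log2 fold change -3.06, SE 0.46, adjusted p = 6.87e-07). Ccr9, a gut-homing receptor, was low everywhere, at 0, 0, 0.641, 0 and 0 CPM in skin and 11.1, 0, 9.80, 0 and 27.8 CPM in VAT (adjusted p = 0.00992). Its VAT libraries of mice 2 and 4 were at 0 like most skin libraries, and no fold is given because skin held 1 count in all. Ccr2 (497 to 966 CPM in skin, 771 to 1246 in VAT, adjusted p = 0.675) and Ccr4 (115 to 159.8 and 131 to 194 CPM, adjusted p = 0.798) overlapped between tissues and did not pass the test.

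Transcription factors of tissue Tregs leaned to skin, with Pparg the exception. Of 21 tested, 10 were higher in skin and 1, Pparg, was higher in VAT. Pparg, which encodes PPARγ, was at 0, 40.5, 30.1, 43.5 and 25.2 CPM in skin and 181, 340.1, 276, 211 and 335 CPM in VAT (log2 fold change -3.28, SE 1.01, adjusted p = 0.0132). Skin of mouse 1 was at 0, and the other 4 skin libraries were all below the lowest VAT library. Without all libraries of mouse 5 its call ended (log2 fold change -3.15, adjusted p = 0.0717). Stat3, which carries signals of IL-6 and related cytokines, was at 1349.5, 1461, 1341, 1594 and 1443 CPM in skin and 586, 519, 412, 467 and 344 CPM in VAT (log2 fold change 1.62, SE 0.14, adjusted p = 1.61e-14). Rora, a nuclear receptor of type 2 and skin Tregs, was at 1712 to 2656 CPM in skin and 733 to 972 CPM in VAT (log2 fold change 1.35, SE 0.28, adjusted p = 0.000216). Batf (log2 fold change 0.998, SE 0.17, adjusted p = 8.26e-06), an AP-1 family factor of tissue Tregs, and Ikzf3 (log2 fold change 1.11, SE 0.20, adjusted p = 1.28e-05), which encodes Aiolos, were higher in skin in all 5 mice. Gata3, the factor of type 2 cells, was at 505 to 614 CPM in skin and 472 to 641 CPM in VAT and did not pass the test (log2 fold change 0.08, SE 0.13, adjusted p = 0.713). Of 15 nuclear hormone receptors, 4 were higher in skin and only Pparg was higher in VAT (2 genes without VAT of mouse 5). Those higher in skin included the glucocorticoid receptor Nr3c1 (1.01, SE 0.19) and the retinoic acid receptor Rara (1.35, SE 0.27).

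Cytokine receptors were higher in skin for 11 of 26 tested genes and higher in VAT for 2 (1 without skin of mouse 1, 3 or 4 or VAT of mouse 1 or 2), with a list median of 0.75. Il6ra and Il6st encode both chains of the IL-6 receptor, and both were higher in skin. Il6ra was at 75.3, 96.7, 108, 83.5 and 142 CPM in skin and 21.4, 42.7, 22.4, 27.3 and 41.7 CPM in VAT (log2 fold change 1.71, SE 0.28, adjusted p = 3.48e-06), and Il6st at 293 to 435 and 56.4 to 133 CPM (log2 fold change 1.93, SE 0.26, adjusted p = 5.85e-08). Il21r was at 688 to 811 CPM in skin and 198 to 413 CPM in VAT (log2 fold change 1.18, SE 0.20, adjusted p = 4e-06). Il18r1, the IL-18 receptor chain, was at 249, 353, 317, 297 and 351 CPM in skin and 96.3, 65.9, 36.9, 197 and 16.7 CPM in VAT (log2 fold change 1.91, SE 0.34, adjusted p = 1.9e-05). The groups did not overlap, and without VAT of mouse 4 the log2 fold change was 2.51. Il1r2, the decoy receptor for IL-1, was named after its values were seen and was at 324 to 579 CPM in skin and 19.6 to 88.1 CPM in VAT (log2 fold change 2.92, SE 0.58, adjusted p = 8.6e-05). Il10ra, the IL-10 receptor chain, was higher in VAT, at 730.2 to 956 CPM against 241 to 441 CPM (log2 fold change -1.27, SE 0.27, adjusted p = 0.000269). Il1rl1 itself was somewhat higher in every skin library, but the difference did not pass the test (log2 fold change 0.31, SE 0.37, adjusted p = 0.578).

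Cytokines and effector molecules were mixed, with 4 of 28 tested genes higher in skin and 6 higher in VAT. The 4 were 1 without VAT of mouse 2 and 2 without VAT of mouse 1 or 5 or skin of mouse 2. Csf1, the macrophage growth factor, was at 2.63, 6.86, 7.05, 10.7 and 14.6 CPM in skin and 95.1, 46.3, 158, 99.2 and 159.7 CPM in VAT (log2 fold change -3.75, SE 0.74, adjusted p = 8.06e-05). Areg, an epidermal growth factor family ligand linked to tissue repair, was at 293, 401, 299.8, 361 and 329 CPM in skin and 490.2, 721, 597, 561 and 810.2 CPM in VAT (log2 fold change -0.92, SE 0.31, adjusted p = 0.0216). No skin library reached the lowest VAT library for Areg, yet without VAT of mouse 5 the call ended (log2 fold change -0.81, adjusted p = 0.0603). Cxcl3, a neutrophil chemokine, was at 28.9, 30.2, 26.3, 1.78 and 13.5 CPM in skin and 94.3, 243, 359, 256 and 340.2 CPM in VAT (log2 fold change -3.67, SE 1.13, adjusted p = 0.0135). Rln3, a relaxin peptide, was also lower in skin (-1.29, SE 0.34). Il10 was at 219.7 to 367 CPM in skin and 263 to 767 CPM in VAT, which overlapped (log2 fold change -0.65, SE 0.34, adjusted p = 0.155).

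Vegfa, the vascular growth factor, was at 72.7, 65.2, 7.69, 28.4 and 24.0 CPM in skin and 3.70, 0, 0, 0.47 and 0 CPM in VAT (log2 fold change 5.39, SE 1.54, adjusted p = 0.00783). It was higher in skin in all 5 mice, and without VAT of mouse 1 the log2 fold change was 7.69. Penk, which encodes proenkephalin, was at 576, 449, 445, 518 and 548 CPM in skin and 201, 30.3, 259, 89.3 and 27.8 CPM in VAT (log2 fold change 2.05, SE 0.69, adjusted p = 0.0215). The call ended without VAT of mouse 2 (1.80, adjusted p = 0.0645) or of mouse 5 (1.80, adjusted p = 0.0637). Il17a was at 0, 63.8, 0, 0 and 5.85 CPM in skin and at 0 in all VAT libraries. Its call rested on skin of mouse 2, without which the adjusted p was 0.134, and it also ended without any 1 VAT library (adjusted p = 0.0501 to 0.0518).

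TNF family receptors and their ligands differed in opposite directions. Of 17 TNF family receptors and ligands, 5 were higher in skin and 2 were higher in VAT. Fas, the death receptor, was at 295, 344, 306, 436 and 367 CPM in skin and 46.1, 17.2, 8.40, 46.1 and 36.8 CPM in VAT (log2 fold change 3.49, SE 0.28, adjusted p = 7.06e-15), and it had the smallest adjusted p of the genes higher in skin. Tnfrsf9, the costimulator 4-1BB, was at 1048, 1562, 1113, 1861 and 1195 CPM in skin and 347, 182, 275, 379 and 369 CPM in VAT (log2 fold change 2.13, SE 0.28, adjusted p = 1.66e-08). Cd27 was higher in skin by less (0.85, SE 0.11). Both ligands that passed the test were lower in skin. Tnfsf11, which encodes RANKL, was at 0.438, 11.7, 14.7, 13.3 and 19.3 CPM in skin and 118, 45.1, 103, 50.3 and 94.4 CPM in VAT (log2 fold change -2.82, SE 0.46, adjusted p = 2.65e-06), and Cd40lg was lower in skin in all 5 mice (-1.33, SE 0.26). Tnfrsf25, the receptor DR3, was at 233 to 273 and 214 to 294 CPM and did not pass the test (log2 fold change 0.06, SE 0.14, adjusted p = 0.805).

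Of 16 NF-κB subunits and feedback genes, 7 were higher in skin and 0 were higher in VAT (10 and 2 at an unadjusted p under 0.05). Without scaling factors these were 7 and 1. Rel, the c-Rel subunit that Tregs need for their development, was at 1324, 1471, 1118, 1223 and 1344 CPM in skin and 298, 234, 232, 299 and 206 CPM in VAT (log2 fold change 2.35, SE 0.21, adjusted p = 3.64e-13). Nfkb2 was at 436 to 576 CPM in skin and 94.4 to 220.2 CPM in VAT (log2 fold change 1.75, SE 0.25, adjusted p = 1.52e-07), and the inhibitor Nfkbib at 226 to 337 and 121 to 163 CPM (log2 fold change 1.02, SE 0.13, adjusted p = 2.45e-08). Skin and VAT libraries did not overlap for these 3 genes. The promoters of Rel and Nfkb2 are shown because they had the larger changes, with TGACG and ACGTG or their reverse in capitals as for the GIMAP genes (Rel: chr11:23770970-23771219, - strand, and Nfkb2: chr19:46304487-46304736, + strand).
Rel: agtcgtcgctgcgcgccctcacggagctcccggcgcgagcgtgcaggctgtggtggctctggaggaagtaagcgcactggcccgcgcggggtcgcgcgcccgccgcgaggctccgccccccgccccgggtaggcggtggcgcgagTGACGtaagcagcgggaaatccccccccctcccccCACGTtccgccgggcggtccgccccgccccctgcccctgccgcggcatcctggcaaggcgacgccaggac
Nfkb2: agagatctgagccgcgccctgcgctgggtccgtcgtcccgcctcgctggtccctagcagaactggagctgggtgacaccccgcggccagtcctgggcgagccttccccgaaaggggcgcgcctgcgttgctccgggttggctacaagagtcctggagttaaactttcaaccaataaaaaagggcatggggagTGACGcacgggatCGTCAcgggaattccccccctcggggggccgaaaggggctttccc
Of 13 genes of the list with a promoter in the table, 4 held TGACG (Rel, Nfkb2, Nfkbib and Tnfaip3), near the share over all promoters. Across the whole comparison, TGACG was in 354 of 1143 promoters of DEGs higher in skin (31%), in 249 of 1151 of DEGs higher in VAT (21.6%) and in 26.7% of all. The median GC content of the same windows was 62.8%, 58% and 59.6%, and its part in that order was not tested.

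Heat shock genes, which encode chaperones for misfolded proteins, were higher in skin for 8 of 14 tested genes, and 0 were higher in VAT (list median 0.92), with 11 and 0 at an unadjusted p under 0.05. By glmTreat against 1.5-fold, 4 were higher in skin. Dnajb1, a co-chaperone of HSP70, was at 556, 556, 657, 710.2 and 530.0 CPM in skin and 172, 262, 199, 219 and 118 CPM in VAT (log2 fold change 1.63, SE 0.22, adjusted p = 3.25e-08). Hsph1 was at 324 to 705 CPM in skin and 50.4 to 280.2 CPM in VAT (log2 fold change 2.02, SE 0.35, adjusted p = 8.09e-06), and without VAT of mouse 2, the highest VAT library, the log2 fold change was 2.62. Hsp90aa1 was higher in skin in all 5 mice (1.08, SE 0.18). The Dnajb1 window (chr8:83607925-83608174, + strand) held 1 TGACG in reverse, in capitals.
Dnajb1: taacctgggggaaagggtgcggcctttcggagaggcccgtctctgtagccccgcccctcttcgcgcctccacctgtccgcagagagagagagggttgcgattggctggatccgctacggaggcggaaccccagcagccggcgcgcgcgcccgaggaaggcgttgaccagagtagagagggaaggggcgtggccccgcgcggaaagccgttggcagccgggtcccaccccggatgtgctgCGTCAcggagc
Immediate early genes, which rise within minutes of stimulation and during tissue digestion, showed no such lean. Of 28 tested, 2 were higher in skin and 4 were higher in VAT, near the background of 11.3% and 10.9%, with a list median of -0.07. The 4 were 1 without skin of mouse 1 or 5 or VAT of mouse 2, 3 or 5 and 2 without skin of mouse 3 or 4, and the 2 were 1 without VAT of mouse 3 or 5. Among ST2- Tregs 7 were higher in skin and 0 in VAT. Nr4a3, which T cell receptor signals induce, was higher in skin at 602 to 726 against 104 to 381 CPM (log2 fold change 1.47, SE 0.37, adjusted p = 0.00173), and Btg2 was lower at 271 to 371 against 573 to 694 CPM (log2 fold change -0.97, SE 0.19, adjusted p = 4.65e-05). The part of digestion in these lists was not tested.

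Genes of oxidative stress defence and of the circadian clock were higher in skin where they differed. In the first list 4 of 11 tested were higher in skin and 0 in VAT (4 and 1 at an unadjusted p under 0.05, and 1 in VAT without skin or VAT of mouse 3), with Nfe2l2, which encodes the regulator NRF2, at 173 to 282 CPM in skin and 56.0 to 94.4 CPM in VAT (log2 fold change 1.83, SE 0.23, adjusted p = 6.87e-09). Its target Gclc, an enzyme of glutathione synthesis, was also higher (1.33, SE 0.25), as was the autophagy adaptor Sqstm1 (0.72, SE 0.10). Of 15 clock genes, 6 were higher in skin and 0 in VAT (9 and 0 at an unadjusted p under 0.05). Both Arntl, the activating arm (BMAL1), and Nr1d2, its repressor, were higher in skin in all 5 mice (1.29, SE 0.24 and 1.51, SE 0.29). Hlf, a clock output factor, was at 130.0, 186, 148, 157 and 174 CPM in skin and 31.3, 59.96, 31.3, 24.9 and 11.8 CPM in VAT (log2 fold change 2.32, SE 0.66, adjusted p = 0.0065). The labels give no hour of harvest, and both tissues came from the same 5 mice.

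Lipid genes differed in both directions. Plin2, which coats lipid droplets, was at 21.01, 134, 84.6, 147 and 106 CPM in skin and 411, 801, 492, 404 and 775 CPM in VAT (log2 fold change -2.56, SE 0.50, adjusted p = 7.42e-05). Skin of mouse 1, the library without Pparg counts, also held the least Plin2. Dgat2, which makes triglyceride, went the other way, at 751, 1163, 826, 993 and 744 CPM in skin and 145, 26.1, 7.47, 71.0 and 7.64 CPM in VAT (log2 fold change 4.09, SE 0.70, adjusted p = 6.59e-06). Without VAT of mouse 1 its log2 fold change was 4.96. Dgat1, the second enzyme of that step, was higher in skin by less (0.79, SE 0.24). Acsl3, which activates fatty acids, was at 31.0 to 66.5 CPM in skin and 0.594 to 23.5 CPM in VAT (log2 fold change 2.52, SE 0.78, adjusted p = 0.0124, and 3.37 without VAT of mouse 1). In all, 5 of 18 fatty acid uptake and storage genes were higher in skin and 3 were higher in VAT. Without all libraries of mouse 5 these were 3 and 1. The 5 were 2 without all libraries of mouse 2 and 3 by glmTreat against 1.5-fold. Cd36, the fatty acid transporter, ranged over 0 to 66.0 CPM in skin and 17.4 to 57.6 CPM in VAT and did not pass the test (log2 fold change -1.43, SE 1.55, adjusted p = 0.537).

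Fatty acid oxidation leaned to VAT, with 5 of 11 tested genes higher in VAT, 2 higher in skin and a list median of -0.66. With mouse as a replicate block, 0 of the 11 were higher in skin and 5 were higher in VAT, and with all 70 libraries 2 were higher in each. Of the 2, none was left without skin of mouse 3 or VAT of mouse 2, and 1 without skin of mouse 2 or 5 or VAT of mouse 3, 4 or 5. The 5 were 3 without VAT of mouse 2. Acadl and Acadm, dehydrogenases of β-oxidation, were lower in every skin library than in any VAT library. Acadl was at 91.2 to 127 CPM in skin and 174 to 220.1 CPM in VAT (log2 fold change -0.94, SE 0.15, adjusted p = 1.59e-06), and Acadm at 32.2 to 55.6 and 66.7 to 129 CPM (log2 fold change -1.14, SE 0.23, adjusted p = 0.000118). Of 25 sterol and fatty acid synthesis genes, 2 were higher in skin and 3 in VAT, which is near the background. Without VAT of mouse 3 these were 5 and 1, and without VAT of mouse 2 the 2 were 1. Nsdhl, an enzyme of cholesterol synthesis, was lower in skin (-1.75, SE 0.26), and Stard4, a cholesterol carrier, was higher (1.05, SE 0.30). For hypoxia and glycolysis, 7 of 25 genes were higher in skin and 1 was higher in VAT. Without VAT of mouse 1 or 2 these were 4 and 0, and without skin of mouse 1 none was higher in VAT. Mxi1, a MYC antagonist induced by hypoxia, was at 448, 521, 472, 488 and 418 CPM in skin and 79.9, 87.9, 46.7, 94.5 and 16.0 CPM in VAT (log2 fold change 2.84, SE 0.25, adjusted p = 1.79e-13). P4ha1, a collagen prolyl hydroxylase induced by hypoxia, was at 243 to 328 and 34.6 to 152 CPM (log2 fold change 1.79, SE 0.26, adjusted p = 2.27e-07), and the glycolytic enzyme Pfkp at 542 to 671 and 224 to 379.5 CPM (log2 fold change 0.91, SE 0.12, adjusted p = 5.15e-08). The P4ha1 window (chr10:59323046-59323295, + strand) held 1 ACGTG in reverse, in capitals.
P4ha1: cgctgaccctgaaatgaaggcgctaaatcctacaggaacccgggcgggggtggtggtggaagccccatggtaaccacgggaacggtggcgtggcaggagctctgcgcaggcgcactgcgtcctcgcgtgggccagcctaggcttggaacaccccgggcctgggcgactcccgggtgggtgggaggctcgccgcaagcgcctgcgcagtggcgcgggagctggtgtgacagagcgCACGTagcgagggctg
Of 24 hypoxia and glycolysis promoters, 11 held ACGTG on either strand, against 21.4% of all tested genes with a promoter. The list was chosen by its hypoxia theme, so that count does not bear on skin against VAT. ACGTG was in 24.3% of promoters of DEGs higher in skin and in 20.2% of those higher in VAT. Motifs of GATA factors (AGATAA), nuclear receptors (AGGTCA) and the E-box (CACGTG, part of which is ACGTG) were in 5.69%, 10.4% and 9.01% of promoters higher in skin, in 6.95%, 10.3% and 8.25% of those higher in VAT and in 5.91%, 10.6% and 8.15% of all, on either strand.

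**Figure D2:**
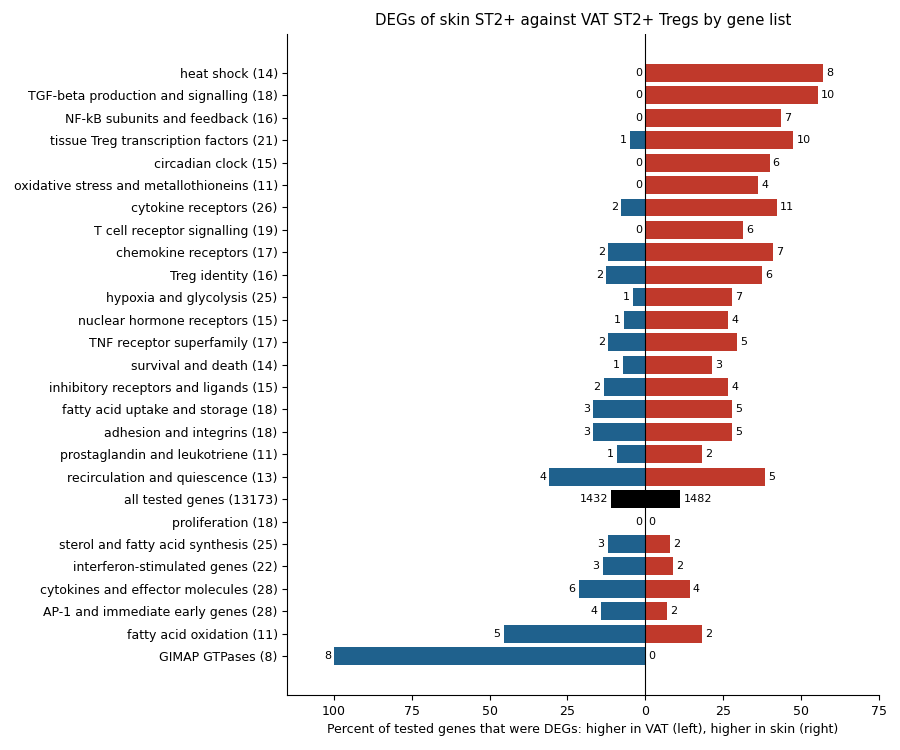
Percent of the tested genes of each list that were DEGs higher in skin ST2+ Tregs (right, red) or higher in VAT ST2+ Tregs (left, blue), with the number of genes at each bar's end and the number tested in brackets. The black bar is all 13173 tested genes (11.3% and 10.9%). The GIMAP list stands at 8 of 8 higher in VAT, and the heat shock, TGF-β and NF-κB lists hold 8, 10 and 7 genes higher in skin and 0 higher in VAT.

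Genes of Treg identity were higher in skin for 6 of 16 and higher in VAT for 2. Foxp3 was at 364, 392.4, 428, 414 and 381 CPM in skin and 159.7, 165, 243, 176 and 163 CPM in VAT (log2 fold change 1.12, SE 0.13, adjusted p = 5.54e-10). Icos, a costimulatory receptor of effector Tregs, was at 1416 to 2307 CPM in skin and 535 to 751 CPM in VAT (log2 fold change 1.47, SE 0.16, adjusted p = 8.53e-11). Ikzf4, which encodes the FOXP3 partner Eos, was at 303 to 560.3 and 46.9 to 189 CPM (log2 fold change 2.23, SE 0.28, adjusted p = 5.61e-09). Nrp1, common on thymus-derived Tregs, was lower in skin at 30.7 to 108 against 169 to 354 CPM (log2 fold change -1.85, SE 0.26, adjusted p = 9.01e-08). Izumo1r, the folate receptor FR4, was at 21.01, 28.1, 28.2, 14.2 and 24.0 CPM in skin and 262, 122, 56.5, 218 and 256 CPM in VAT (log2 fold change -2.97, SE 0.24, adjusted p = 5.03e-15). Klrg1, a receptor of terminally differentiated Tregs, was at 445 to 790.1 and 780.0 to 1302 CPM and did not pass the test (log2 fold change -0.62, SE 0.47, adjusted p = 0.352).

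Genes of recirculation and quiescence went both ways, with 5 of 13 higher in skin and 4 higher in VAT. Lef1 was at 22.2 to 47.3 CPM in skin and 71.0 to 141 CPM in VAT (log2 fold change -1.53, SE 0.22, adjusted p = 2.11e-07). Its relative Tcf7 overlapped between tissues, at 54.7, 18.5, 19.9, 25.7 and 1.75 CPM in skin and 133, 45.7, 33.6, 99.2 and 38.9 CPM in VAT (log2 fold change -1.51, SE 0.36, adjusted p = 0.00111), and its log2 fold change was -2.15 without skin of mouse 1. Both encode factors of resting T cells. Foxo1, another quiescence factor, was higher in skin at 278 to 377 against 101 to 171 CPM (log2 fold change 1.21, SE 0.14, adjusted p = 5.54e-10), and Satb1, a chromatin organiser, was at 36.8 to 128 against 0.594 to 31.3 CPM (log2 fold change 2.81, SE 0.46, adjusted p = 3.4e-06, and 3.69 without VAT of mouse 1).

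Survival genes differed by member. Bcl2, which protects from apoptosis, was at 25.4, 33.6, 11.5, 6.21 and 4.68 CPM in skin and 147, 81.3, 65.8, 197 and 81.9 CPM in VAT (log2 fold change -2.78, SE 0.33, adjusted p = 1.84e-09). Bcl2l11, which encodes its antagonist BIM, was at 28.0, 40.5, 58.3, 108 and 73.1 CPM in skin and 0.823, 0, 5.14, 42.8 and 9.72 CPM in VAT (log2 fold change 2.37, SE 0.50, adjusted p = 0.000242). Those groups overlapped through VAT of mouse 4, without which the log2 fold change was 4.03. In all, 3 of 14 genes were higher in skin and 1 was higher in VAT (2 without VAT of mouse 3).

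Of 15 inhibitory receptors and ligands, 4 were higher in skin and 2 were higher in VAT (1 without skin of mouse 1, 3, 4 or 5 or VAT of mouse 2). Havcr2, which encodes TIM-3, was at 146, 196, 88.4, 190.0 and 164 CPM in skin and 26.3, 30.3, 12.6, 0 and 6.25 CPM in VAT (log2 fold change 3.37, SE 0.79, adjusted p = 0.00107). Cd274, the ligand PD-L1, was higher in skin in all 5 mice (1.03, SE 0.24), and Btla was at 98.1 to 196 against 9.34 to 99.6 CPM (log2 fold change 1.996, SE 0.33, adjusted p = 4.53e-06, and 3.11 without VAT of mouse 1). Lilrb4a was lower in skin, at 2.19 to 88.8 against 77.8 to 275 CPM (log2 fold change -2.43, SE 0.58, adjusted p = 0.00102). Of 19 T cell receptor signalling genes 6 were higher in skin and 0 in VAT (8 and 5 at an unadjusted p under 0.05), among them Cblb, a brake on signalling (1.76, SE 0.20), and the costimulator Cd28 (0.76, SE 0.13).

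Interferon-stimulated genes stayed near the background, with 2 of 22 higher in skin (4 without VAT of mouse 1) and 3 higher in VAT. Igtp (1.01, SE 0.15) was higher in skin, and Isg20 (-1.09, SE 0.21) and Bst2 (-0.95, SE 0.21) were lower. Mx1 was at 0 in all skin libraries and at 7.41, 65.3, 46.7, 0 and 9.72 CPM in VAT (at least 70.1-fold lower in skin by means, adjusted p = 0.003, and at least 43.3-fold without VAT of mouse 2). Of 18 proliferation genes, 0 passed the test in either direction by edgeR, DESeq2 or limma, and at an unadjusted p under 0.05 in edgeR 1 was higher in VAT and 0 in skin. Without skin of mouse 4, 1 passed as higher in VAT. Among 11 prostaglandin and leukotriene genes, 2 were higher in skin, including the receptor Ptger4 (0.99, SE 0.26), and 1 was lower (2 without skin of mouse 4 or with mouse as a replicate block). That gene, Ltb4r1, the leukotriene B4 receptor, was at 86.2 to 167 CPM in skin and 422 to 723 CPM in VAT (log2 fold change -1.996, SE 0.45, adjusted p = 0.000579).

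Several genes had counts in only 1 of these tissues among ST2+ Tregs. The 5 DEGs with the largest fold that were at 10 CPM or more in every skin library had 0 counts in all VAT libraries. A limit of 3 counts over the 5 VAT libraries (0.305 CPM) makes the skin mean of Dscam, an adhesion molecule, at least 164-fold higher, for counting error only. Krt14, a keratin, is given with the markers of other cells. Kit, the receptor for stem cell factor, was at 106, 128, 60.2, 84.3 and 26.3 CPM in skin (at least 265-fold), and Mreg, which encodes melanoregulin, at 45.5, 113, 71.1, 100.3 and 121 CPM (at least 295-fold). Rasd1, a glucocorticoid-induced RAS relative, was at 30.6, 188, 25.6, 19.5 and 11.1 CPM (at least 180-fold, and at least 71.1-fold without skin of mouse 2). Of the matching 5 genes of VAT, Tmem273 was at 104, 121, 101, 33.9 and 59.0 CPM in VAT and at 0 in skin (at least 227-fold, against a limit of 0.369 CPM). Retnla, a gene of alternatively activated macrophages, was at 67.5, 46.3, 16.3, 16.0 and 95.8 CPM (at least 131-fold), and Wipf3, an actin regulator, at 14.8, 22.6, 10.3, 47.0 and 16.0 CPM (at least 60-fold). Sema4f, a semaphorin, was at 12.5 to 43.9 CPM in VAT and had counts in 1 skin library, and Rom1, known as a photoreceptor protein, was at 10.7 to 59.4 CPM with counts in 1 skin library. Among the 8 genes of smallest adjusted p in each direction were also Cirbp, a cold-inducible RNA-binding protein (-1.68, SE 0.12), and Tspan13, a tetraspanin (-1.86, SE 0.15), lower in skin. Cdip1 (3.53, SE 0.30), the polycomb subunit Pcgf5 (2.27, SE 0.21), the promoter-binding factor Gpbp1 (1.34, SE 0.11) and the fatty acid elongation enzyme Hacd3 (1.498, SE 0.12) were higher in skin.

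Transcripts of other cells moved with tissue and stand beside these lists. Of 12 keratinocyte and sebocyte markers, 11 were tested and 11 were DEGs higher in skin. A gene was tested at 1 CPM or more in 10% of libraries, which skin libraries alone could meet, so this count is a description. The 12 markers summed to 288 to 2595 CPM in skin ST2+ libraries and 16.3 to 74.2 CPM in VAT. Krt14, Krt15, Krt1, Krt79, Krtdap and Trp63 were at 0 in VAT. Skin of mouse 3 was the highest, and without it 2643 DEGs were called. Krt14 was at 11.8, 121, 319.7, 121 and 52.7 CPM in skin. Of 8 fibroblast markers, 2 were DEGs higher in skin (41.1 to 152 CPM against 0.470 to 116 CPM summed). Of 10 macrophage and monocyte markers, 9 were tested and 1 was higher in VAT (8.92 to 59.97 CPM in skin, 82.3 to 243 CPM in VAT summed), and Itgam was at 0 in both. The 7 adipocyte markers summed to 2.93 to 82.6 CPM in skin and 10.8 to 33.3 CPM in VAT. Adipoq, Plin1, Lep, Retn and Cidec were at 0 in VAT, and Lep and Cfd were at 0 in skin. The 7 mast cell and basophil markers summed to 26.3 to 748 CPM in skin and 0 to 12.6 CPM in VAT. Kit is among them, and in skin ST2- Tregs (23.1 to 89.8 CPM) the other 6 were at 0. In skin ST2+ of mice 1, 2, 3 and 5 the sum (26.3 to 128 CPM) was that of Kit alone. Skin ST2+ of mouse 4 (748 CPM) was the only one with counts of other markers of the list. The 6 tested markers of antigen presenting cells had 2 DEGs higher in skin and 1 higher in VAT (471 to 718 CPM in skin, 236 to 641 CPM in VAT summed), and 1 of 3 tested B cell markers was higher in VAT (9.61 to 30.2 CPM and 24.3 to 153 CPM). The part of these transcripts in the results was not tested. Of the DEGs higher in skin, 1184 (79.9%) had a mean of at least 5 CPM in spleen ST2+ Tregs. Of those higher in VAT 1338 (93.4%) did, against 74.7% of all tested genes. Genes with few counts are rarely called, so the shares are a description and do not show which cells the transcripts came from.

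**Figure D3:**
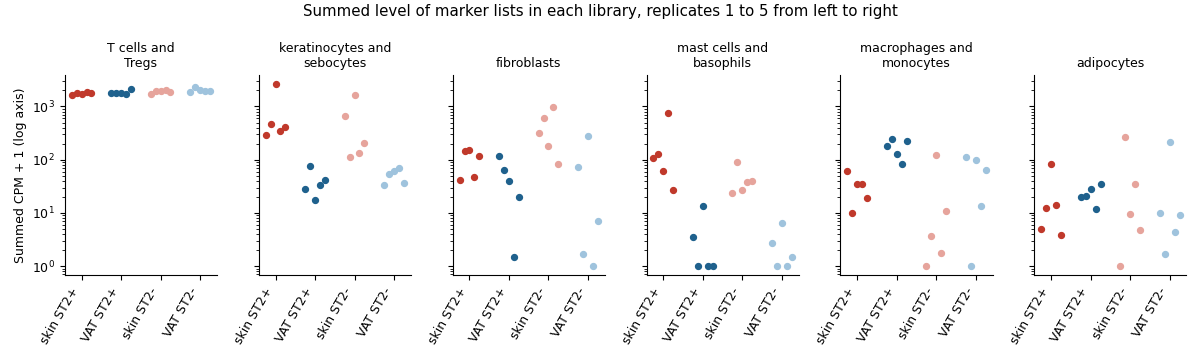
Summed CPM + 1 (log axis) of marker lists in each library of skin and VAT Tregs, with mice 1 to 5 from left to right. T cell markers lay between 1663 and 2336 CPM in all 20 libraries, and keratinocyte markers reached 2595 CPM in skin ST2+ of mouse 3 and at most 74.2 CPM in VAT ST2+.

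Levels in the ST2+ Tregs of blood, spleen, lung and colon place both tissues. Among DEGs higher in skin, 1139 (76.9%) had their highest mean log2 CPM of the 6 tissues in skin, and for 577 (38.9%) VAT was lowest. Among DEGs higher in VAT, skin was lowest for 1253 (87.5%) and VAT highest for 389 (27.2%). Over all tested genes skin was highest for 23.9% and lowest for 24.8%, and VAT was highest for 10.6% and lowest for 16%. These sets were chosen on the skin and VAT libraries, so the shares are a description. Gimap4 and Itga4 were low in skin alone. Gimap4 had medians of 799.7, 751, 702, 702 and 647 CPM in blood, spleen, lung, VAT and colon and 18.5 CPM in skin. The lowest library outside skin was at 594 CPM for Gimap4 and at 302 CPM for Itga4, against 3.20 to 24.0 and 1.92 to 29.3 CPM in skin. Pparg and Plin2 were high in VAT alone, at 181 to 340.1 and 404 to 801 CPM, and every VAT library exceeded all libraries of the other 5 tissues (at most 103 and 174 CPM).

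Itgae was apart in both directions. Its medians were 371 CPM in blood, 375 in spleen, 414 in lung, 249 in colon, 1146 in skin and 21.2 in VAT. All skin libraries were above those of the other tissues. VAT overlapped with colon alone, through VAT of mouse 1. Fas was likewise highest in every skin library and lowest in every VAT library among the 6 tissues. Ccr6 was highest in every skin library too, but VAT (0.467 to 75.7 CPM) overlapped with spleen (57.2 to 144 CPM). Rel had medians of 61.6 CPM in blood, 123 in spleen, 234 in VAT, 380.1 in lung, 585 in colon and 1324 in skin, where blood and spleen, VAT and lung, and lung and colon overlapped. Foxp3 medians were 147 to 199.8 CPM in the 5 tissues outside skin and 392.4 CPM in skin, where every library was above all others. VAT overlapped with each of the other 4 tissues. Kit had counts in all colon (41.0 to 99.7 CPM) and lung (9.20 to 28.5 CPM) libraries and was at 0 in blood and at most 0.792 CPM in spleen.

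**Figure D4:**
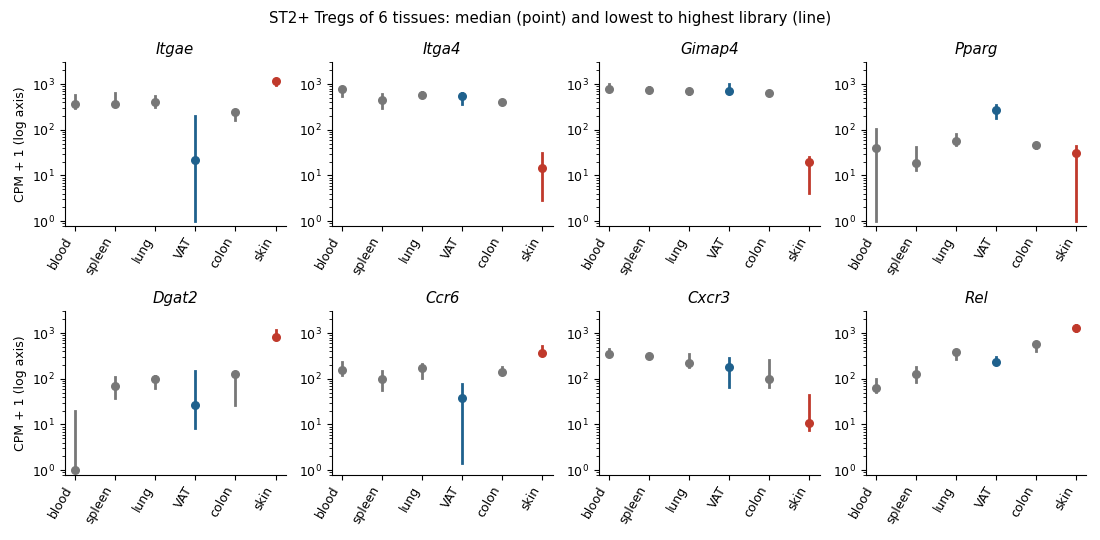
Level of 8 genes in ST2+ Tregs of 6 tissues, as CPM + 1 on a log axis, with the median as a point and a line from the lowest to the highest library (blood 4, colon 3 and the others 5 libraries). Gimap4 and Itga4 are lowest in skin, Pparg stands out in VAT, and the medians of Itgae and Ccr6 are highest in skin and lowest in VAT.

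The skin and VAT difference was mostly shared by ST2- Tregs of the same mice. Between skin ST2- and VAT ST2- libraries, 2379 genes (18.1%) were DEGs, 1152 higher in skin and 1227 higher in VAT. Without scaling factors that split was 880 and 1649. Of the DEGs higher in skin among ST2+ Tregs, 1349 (91%) had the same sign in ST2- Tregs and 657 (44.3%) were also DEGs in that direction, with a median log2 fold change of 0.80. Of those higher in VAT, 1337 (93.4%) had the same sign and 711 (49.7%) were also DEGs, with a median of -0.85. Opposite DEGs numbered 9 and 4. Over all tested genes the sign was the same for 72.5%. The libraries of these comparisons are separate, but the mice are the same.

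A test of the difference itself, the interaction of tissue and ST2, called 95 genes (0.721%), of which 61 had a higher skin minus VAT difference in ST2+ Tregs and 34 a lower one. At an unadjusted p under 0.05 there were 1603. Fewer were called in a fit of the 20 skin and VAT libraries only, with 12 genes, or 42 with mouse as a replicate block. Slamf6, a receptor of less differentiated T cells, had the smallest adjusted p. It was at 176, 142, 122, 175 and 171 CPM in skin ST2- and 490.1, 721, 416, 506 and 502 CPM in VAT ST2- Tregs, whereas ST2+ Tregs held 224, 134, 172, 206 and 233 CPM in skin and 179, 172, 45.8, 112 and 179 CPM in VAT. The interaction was 2.24 (SE 0.26, adjusted p = 3.73e-08). Every VAT ST2- library lay above all other 15. In ST2+ Tregs alone Slamf6 stayed under the minimum fold (log2 fold change 0.50, SE 0.18, adjusted p = 0.035), and its log2 fold change was 0.60, 0.61, 0.59 or 0.61 and passed the 1.5-fold minimum without skin of mouse 2 or VAT of mouse 1, 2 or 5. Aff3, a nuclear factor of the AF4 family, was also high in VAT ST2- Tregs alone, at 29.0 to 57.99 CPM against 0 to 13.6 in VAT ST2+, 0.585 to 14.4 in skin ST2+ and 0 to 3.71 CPM in skin ST2- (interaction 5.20, SE 0.82, adjusted p = 0.000195). Without skin ST2+ of mouse 1 it was 4.48, adjusted p = 0.00552, and the call ended in the 20 libraries with mouse as a block (adjusted p = 0.295) and by limma voom (0.0764). Gsta4, a glutathione transferase, was at 4.07 to 30.8 CPM in VAT ST2- and at 0 in VAT ST2+ libraries (interaction adjusted p = 0.00345, 0.0471 without skin ST2+ of mouse 3, and 0.292 in the 20 libraries with the block). Pja1, a ubiquitin ligase, was lower in VAT ST2+ (49.3 to 171 CPM) than in VAT ST2- Tregs (194 to 327 CPM), with skin at 333 to 439 and 287 to 416 CPM (interaction 1.45, SE 0.28, adjusted p = 0.00345).

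In the other direction, Il2ra, which encodes the high-affinity IL-2 receptor chain CD25, was at 376, 209, 218, 255 and 284 CPM in VAT ST2- and 455, 894, 827, 922 and 656 CPM in skin ST2- Tregs, whereas both ST2+ groups were high (762 to 1223 CPM in skin, 626 to 1352 in VAT). The interaction was -1.20 (SE 0.23, adjusted p = 0.00345, and 0.186 in the fit of the 20 libraries with mouse as a block, which ended the call). Klf7, a Krüppel-like factor, was highest in VAT ST2+ Tregs, at 61.3 to 144 CPM against 12.7 to 36.9 in VAT ST2-, 14.4 to 39.8 in skin ST2+ and 17.3 to 55.7 CPM in skin ST2- (interaction -2.05, adjusted p = 0.00345), and that fit ended its call too (adjusted p = 0.16). Gimap4 was lower still in skin ST2+ (3.20 to 24.0 CPM) than in skin ST2- Tregs (42.4 to 89.7 CPM), with VAT ST2- at 737 to 1224 CPM (interaction -1.60, SE 0.26, adjusted p = 0.000266). Its call ended in the same fit (adjusted p = 0.0867) and by limma voom (adjusted p = 0.304). Tspan13 had an interaction of -1.03 (adjusted p = 0.00345). Il1rl1, on which the populations were sorted, was also called (-2.77, adjusted p = 0.00641), but not by limma voom (0.0815) or DESeq2 (0.0545).

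**Figure D5:**
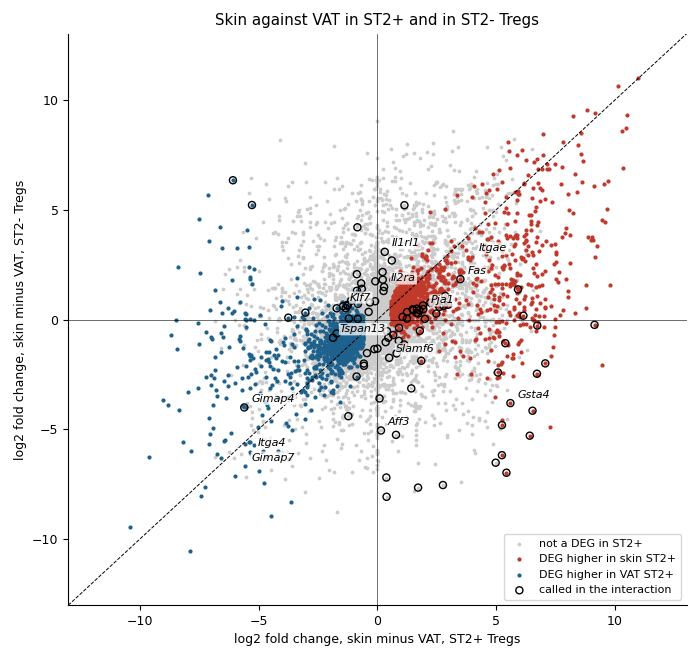
Log2 fold change of skin minus VAT in ST2+ Tregs (horizontal) and in ST2- Tregs (vertical) for all 13173 tested genes, with DEGs of the ST2+ comparison in red (1482 higher in skin) and blue (1432 higher in VAT) and the 95 genes called in the interaction circled. The dashed line marks equal change, and most coloured points lie on the same side of 0 on both axes.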

How the data were processed

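Regulatory T cells were sorted as CD4+ Foxp3-YFP+ CD44hi cells, ST2+ or ST2-, and libraries were made with SMART-Seq v4 and NexteraXT and sequenced in 58-base reads. Per the labels, the authors used CASAVA 1.8.2, STAR, Picard, SAMtools and HTSeq 0.4.1 on GRCm38, and deposited raw counts per gene (53465 Ensembl IDs). Whether counting used strand is not given in the sources used here, so reads of overlapping genes cannot be told apart. Symbols came from GENCODE M21 (53274 IDs matched, 21865 protein-coding). Of 70 libraries, 3 with totals of 1000000 or fewer were left out. Protein-coding genes at 1 CPM or more in 10% of libraries were tested by edgeR's quasi-likelihood test over 14 groups (67 libraries, TMM factors), with 1.5-fold and Benjamini-Hochberg adjusted p of 0.05. CPM values are counts scaled to 1000000 of each library's counts in tested genes, after TMM factors. No gene length enters them, so levels were compared between samples and not between genes. Each SE was the size of the log2 fold change divided by the square root of the edgeR F statistic, which includes the spread between libraries. It is an approximation, and a rough one for genes near 0 in a group. The limits for genes at 0 cover the counting error of reads only, and the reads carried no molecular identifiers.

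The replicate number pairs groups because the labels give the same animal. Deviations of same-mouse libraries from their group means correlated at -0.0271 to 0.0509 over 8349 genes (0 of 5 above 0.1). The members and lists were chosen with earlier results of these data known. Named genes were the 8 of smallest adjusted p and the 5 of largest fold at 10 CPM or more in each direction, up to 3 per list and direction (all where 5 or fewer were called), 4 per direction of the interaction, and 15 set genes. Those that lost their call without 1 library were counted but mostly not named. Some list members that were counted are not reported here by name. Alternatives were DESeq2, limma voom, the mouse block, other scaling, filters and left-out libraries. Only the edgeR, limma voom and DESeq2 fits were also run on simulated counts. Promoters came from RefSeq (GRCm38.p6). R 4.3.3, edgeR 4.0.16, limma 3.58.1, DESeq2 1.42.0 and Python 3.11.15 were used.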

Additional observations from a re-analysis of the deposited data

Results flagged for a closer look

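Single libraries far from the other 4 of their group were looked for in skin and in VAT ST2+ Tregs for 125 named genes, leaving out sets of 5 libraries with no spread, by the gap to the nearest library as a share of the range (critical value 0.71). In all, 19 sets were found, and chance gives about 1 in 20 of the sets looked at. Skin of mouse 1 was the low library for Pparg (0 CPM, others 25.2 to 43.5), Plin2 (21.01 CPM, others 84.6 to 147), Tnfsf11 (0.438 CPM, others 11.7 to 19.3), Gimap1 (12.3 CPM, others 66.6 to 91.6) and Il21r (688 CPM, others 777 to 812). Skin of mouse 2 was high for Ccr6 (515 CPM, others 338 to 368) and Rom1 (0.686 CPM, others 0) and low for Klf7 (14.4 CPM, others 34.5 to 39.8). Skin of mouse 3 was low for Gimap4 (3.20 CPM, others 16.6 to 24.0) and held the only Ccr9 count (0.641 CPM, others 0). Skin of mouse 4 was high for Gclc (257 CPM, others 190.0 to 202), and skin of mouse 5 held the only Sema4f count (0.585 CPM, others 0).

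In VAT, mouse 5 was low for Itgb3 (125 CPM, others 203 to 244), Il21r (198 CPM, others 355 to 413) and Lilrb4a (77.8 CPM, others 206 to 275). Mouse 3 was low for Ccr6 (0.467 CPM, others 37.4 to 75.7) and high for Foxp3 (243 CPM, others 159.7 to 176). Mouse 2 was low for Stard4 (45.1 CPM, others 78.0 to 95.1), and mouse 1 was high for Vegfa (3.70 CPM, others 0 to 0.47).

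For 18 named genes the skin minus VAT difference differed between ST2+ and ST2- Tregs by the test of the interaction. The interaction (log2) was positive for Slamf6 (2.24), Aff3 (5.20), Btla (1.97), Fas (1.65), Ikzf4 (1.46), Pja1 (1.45), Gpr183 (1.34), Cblb (1.34) and Gsta4 (9.40, a fitted value that depends on the prior count since VAT ST2+ held no Gsta4 count). It was negative for Csf1 (-3.83), Il1rl1 (-2.77, the sorted gene), Il10 (-2.05), Klf7 (-2.05), Itgb3 (-1.92), Cd40lg (-1.85), Gimap4 (-1.60), Il2ra (-1.20) and Tspan13 (-1.03). Over 20 fits that each left out 1 library, 17 kept the call for Il10 and Btla, 9 for Csf1 and 6 for Ikzf4, and all 20 for the other 14 genes. With mouse as a replicate block all 18 kept the call. In the fit of the skin and VAT libraries only with that block, 10 of 18 lost it, namely Gimap4, Gpr183, Fas, Btla, Cblb, Ikzf4, Aff3, Gsta4, Klf7 and Il2ra (adjusted p = 0.0736 to 0.295). By limma voom 7 lost it, namely Gimap4, Il1rl1, Fas, Btla, Cblb, Ikzf4 and Aff3 (adjusted p = 0.0599 to 0.304), and by DESeq2 1, Il1rl1 (adjusted p = 0.0545).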

How the results depend on the processing

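No named gene that was a DEG in the main fit or in an alternative changed direction in that alternative. The sign was not followed for genes called in neither. DEGs of ST2+ Tregs numbered 2914, and 1773 in a fit of their own libraries only, 1521 there with mouse as replicate block and 1185 by glmTreat against 1.5-fold. For ST2- Tregs these were 2379, 1470, 1324 and 815. The interaction gave 95 genes, and 223 by DESeq2, 60 by limma voom, 12 in its own libraries, 42 there with the block, 12 by glmTreat and 49 with all 70 libraries, so its count depends on the model. Pairing by mouse as a replicate block gave 2936, 2399 and 108, and beside the fatty acid oxidation list it moved 1 list count over 1.5 times (prostaglandin and leukotriene genes higher in VAT, 2 in place of 1). Leaving out 1 library gave 2527 to 2777, 2010 to 2300 and 52 to 156, and leaving out 1 mouse 2068 to 2668, 1739 to 2025 and 21 to 97. Without scaling factors, 39.9% of ST2+ DEGs were higher in skin in place of 50.9% (ST2-: 34.8% and 48.4%), with the median of all genes at -0.09 and -0.12. The analysis of genes at 5 CPM or more in spleen ST2+ Tregs, added after seeing the data, gave 2610, 2184 and 100. Of 125 named genes, 14 lost their call by glmTreat, 6 in the own libraries, 3 by DESeq2 and 8 without mouse 5. Leaving out all libraries of 1 mouse ended the call of Acsl3 (mouse 2, 3 or 4, adjusted p = 0.0523 to 0.0602), of Cxcl3 (mouse 3, 4 or 5, 0.0507 to 0.0672) and, for mouse 5, of Rln3, Dgat1, Ptger4 and Ccr9 (0.0541 to 0.095). The clock list then held 3 genes in place of 6 without mouse 5. The causes were not tested. Simulated counts for 13173 genes had 100 changed at each fold. There edgeR recovered 42 of 100 ST2+ changes of 2-fold and 74 of 100 of 4-fold. Far fewer genes changed there than were called here, which makes the adjusted p stricter, so these rates do not carry over to these data. Depth was not varied.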
